A study of Homo sapiens with 6 samples.

Results

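The genes described here are 9 immediate early genes, EGR1, EGR2, EGR3, NR4A1, IER2, IER5, DUSP1, KLF6 and ZFP36, and the measurement is their H3K27ac in CCRF-CEM cells. Members were the deposited broad peaks that overlap 9 gene spans on hg19, each extended by 5 kb on both sides, a choice by position and not by value. The extended spans held 23, 23 and 24 of the 174843, 180754 and 181577 peaks of the parental libraries treated with DMSO, with drug for 2 h and with drug for 4 h. For the knockout libraries the same numbers were 24, 25 and 31 of 271785, 221753 and 410176. Each of the 9 genes had at least 1 peak in each of the 6 libraries.

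H3K27ac, acetylation of histone H3 at lysine 27, marks active promoters and enhancers and was measured by chromatin immunoprecipitation and sequencing. CCRF-CEM is an established human T lymphoblast leukemia line. The line was used as wild-type parental cells and as a knockout of SLFN11, a protein known to sensitise cells to drugs that cause replication stress, and both were given DMSO (the control) or 100 nM of the topoisomerase I inhibitor camptothecin for 2 h or 4 h. The times are those of the sample labels, and the extraction protocol speaks of 4 h alone. The series asks how SLFN11 bears on chromatin and immediate early genes under replication stress. Each of these 6 groups was 1 library, so no value below could be set against a spread between replicates and no test was run. Whether the knockout cells come from 1 clone is not given in the sources used here. Neither the knockout nor the T cell identity was checked in these peaks, since those genes were not placed on hg19.

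Immediate early genes are switched on quickly after a stimulus and without new protein synthesis, by factors already present in the cell. Serum response factor, which binds the CArG box, and CREB, which binds the cyclic AMP response element (CRE), are textbook inducers downstream of kinase signalling. In T cells the EGR genes and NR4A1 are known early targets of antigen receptor signalling.

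RefSeq promoters of build GRCh38.p14 were matched for 8 of the 9 genes, with 11 starts in all, and EGR3 had no entry. The 250 bases before the start are shown for 4 genes, 5′ to 3′ on the strand of the gene. EGR1 (chr5:138465229-138465478, plus strand) is shown because its level rose in both treated parental libraries, and EGR2 (chr10:62816367-62816616, minus strand) because it carries the same elements. DUSP1 (chr5:172771196-172771445, minus strand) is shown for its full CRE, and KLF6 (chr10:3785210-3785459, minus strand) because its level differed most between the genotypes. Capitals mark the CArG box, TGACGTCA and TGACG on either strand in the first 3 sequences, and GGGCGG in KLF6.
EGR1: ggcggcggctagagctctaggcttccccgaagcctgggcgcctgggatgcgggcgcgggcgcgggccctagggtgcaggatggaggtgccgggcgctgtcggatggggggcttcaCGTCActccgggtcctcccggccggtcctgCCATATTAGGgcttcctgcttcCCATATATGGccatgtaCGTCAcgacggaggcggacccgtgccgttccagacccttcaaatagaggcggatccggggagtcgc
EGR2: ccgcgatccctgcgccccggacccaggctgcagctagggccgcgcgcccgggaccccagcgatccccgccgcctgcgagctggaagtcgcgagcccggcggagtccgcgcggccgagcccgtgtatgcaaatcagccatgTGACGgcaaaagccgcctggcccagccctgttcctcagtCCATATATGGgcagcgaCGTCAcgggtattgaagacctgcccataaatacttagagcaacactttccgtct
DUSP1: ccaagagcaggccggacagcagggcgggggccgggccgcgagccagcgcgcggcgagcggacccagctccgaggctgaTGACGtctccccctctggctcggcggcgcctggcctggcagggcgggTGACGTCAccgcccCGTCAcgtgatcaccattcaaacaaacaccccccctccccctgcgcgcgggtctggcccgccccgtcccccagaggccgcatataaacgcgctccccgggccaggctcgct
KLF6: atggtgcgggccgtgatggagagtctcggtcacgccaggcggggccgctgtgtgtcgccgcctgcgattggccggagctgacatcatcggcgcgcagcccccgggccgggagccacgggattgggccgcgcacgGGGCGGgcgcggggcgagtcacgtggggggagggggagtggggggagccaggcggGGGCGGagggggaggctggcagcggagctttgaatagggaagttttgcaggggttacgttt

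A CArG box was found in 2 of the 11 promoters. The boxes began 105 and 83 bases before the start in EGR1 and 71 bases before the start shown for EGR2. The other EGR2 starts had no CArG box. In the whole table of 35114 promoters, 1.16% hold one in the same window. Both genes also hold TGACG on the opposite strand just after a CArG box, 66 bases before the start in EGR1 and 54 in EGR2. TGACGTCA was found in 1 promoter, that of DUSP1 at 125 bases before the start, and in 1.65% of all promoters. TGACG, which TGACGTCA contains on both strands, was found in 4 of the 11 (EGR1, EGR2, DUSP1 and IER2) and in 21.2% of all. GGGCGG was found in 7 of the 11 and in 42.6% of all, and TATAAA in 1, that of DUSP1, and in 10.7% of all. The EGR site GCGTGGGCG was found in 0 of the 11 and in 0.721% of all. Both strands were searched, a match is not a measured site, and these GRCh38 stretches were not placed within the hg19 peaks.

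The libraries were unequal in depth. The background pileup solved from each list lay between 0.506 and 0.715 fragments per base in 5 libraries and at 0.168 in knockout 4 h. Lengths were therefore compared in the 30000 peaks of smallest p of each library. Strength was compared in 18835 fixed regions, made by merging the 15000 strongest peaks of every library except knockout 4 h, and 13 of these regions lie in the 9 spans. Fold is the pileup over local background that the authors deposited per peak, and the rank of a region is its place by p among the fixed regions of that library.

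A fold is relative to the neighbourhood of the peak. Fold and p were therefore solved together for the pileup and the local background, and the pileup divided by the background of the library is called the level. It is a value per base, and how far it depends on the width of a peak was not measured. This limits comparisons between genes, and between libraries where the width of the peak differs. No level is given where more than 1 solution exists, as at EGR2 in every library and at 5 of the 9 genes in knockout 4 h. The lists hold no counts, so a level carries no interval. Ratios of level or fold were divided by the median ratio of all regions with that value in both libraries, unless said otherwise. The size limit was 0.32 on the log2 scale in either direction. Triplets of values follow the order DMSO, 2 h, 4 h, and in each genotype both drug ratios share the 1 DMSO library.

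ZFP36, which binds AU-rich messages and speeds their decay, and IER2, a nuclear early response protein, lie on chromosome 19 and had high levels in every library. The strongest ZFP36 region, chr19:39903101-39904869, lay beyond the right end of the span, and whether it belongs to ZFP36 was not tested. Its parental levels were 162, 175 and 179, and its knockout levels were 140.5, 149.9 and 175. The region at the start of ZFP36, chr19:39897115-39899022, stood at 169.6, 151 and 157 in the parental and at 149, 152 and 151 in the knockout line. A further region near the end of the gene, chr19:39900201-39900972, stood at 166, 151 and 175 in the parental and at 125, 133 and 146 in the knockout line. The 3 ZFP36 regions overlapped in level, and the level of the strongest changed by less than the size limit in all 7 comparisons. The region at the start passed the limit in knockout 4 h against its control, with a ratio of 0.787. The region near the end passed it in knockout 4 h against parental 4 h, with a ratio of 0.778.

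IER2 lay under 1 region, chr19:13260623-13267090, that runs past both ends of its span. Its parental levels were 150.4, 149 and 152 and its knockout levels 126, 133 and 157, a range that overlapped that of ZFP36. Its fold was the lowest of the set in 5 libraries, between 1.78 and 2.09 there and 2.42 in knockout 4 h. The local background at IER2 was 61.2 to 84.9 times that of the library, against 41.4 to 52.3 times at the strongest ZFP36 region and 5.75 to 8.09 times at EGR3. In parental 2 h the IER2 cover was split into 2 peaks, and the level there comes from the one of 1293 bp. That peak lies mostly past the right end of the span. In knockout 4 h the cover was split into 3 peaks, and the level comes from the one of 2329 bp. These levels thus cover shorter stretches than those of the other libraries. Level times width gave drug ratios of 0.205 in parental 2 h and 0.399 in knockout 4 h, against 0.956 and 0.964 by level. In parental 4 h and knockout 2 h it gave 0.992 and 0.967.

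The remaining genes had lower levels, apart from KLF6 in the knockout. EGR1 ranged from 75.9 to 118 over 6 libraries and NR4A1 from 70.1 to 86.6 over 5, so these overlapped, and parental KLF6 lay in the same range. IER5 lay below them at 43.1 to 56.6 over 5 libraries. DUSP1 at 31.6 to 38.6 over 3 libraries and EGR3 at 25.0 to 34.7 over 5 overlapped each other and lay below IER5. EGR2 was the weakest by rank in 5 of the 6 libraries, at places between 13373 and 17848 over all 6.

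**Figure D1:**
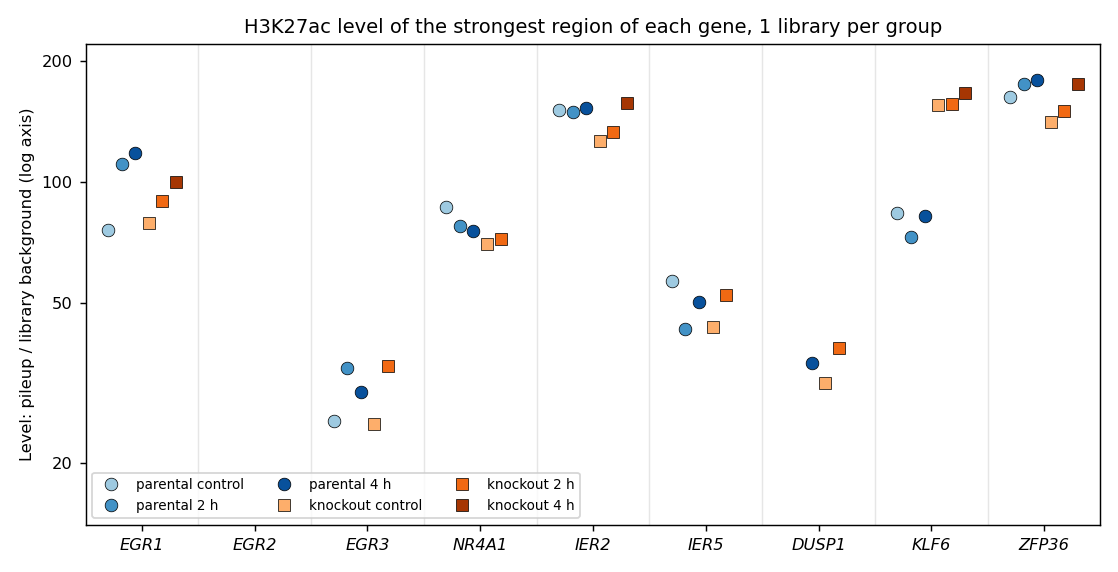
Level of the strongest H3K27ac region of each gene (pileup over library background, log axis), 1 point per library, circles for parental and squares for knockout libraries; a missing point has no single solution. EGR1 is highest in the treated parental libraries (111 and 118), and KLF6 lies at 155 to 166 in the knockout and at 73.0 to 83.5 in the parental libraries.

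EGR1, a zinc finger transcription factor, had the largest rise in level after camptothecin in parental cells among the 7 genes with levels there. Its region, chr5:137799459-137801256, begins upstream of the gene and ends near its start, which the span gives to the kb only. The parental levels were 75.9, 111 and 118, and the knockout levels were 79.0, 89.6 and 99.9. The treated parental libraries were above the other 4, and the DMSO libraries were close to each other. The parental ratios were 1.41 at 2 h and 1.47 at 4 h, and the knockout ratios were 1.05 and 0.982. Without division by the median the knockout ratios were 1.13 and 1.26, the second past the size limit, and the parental ratios 1.46 and 1.56.

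By rank, EGR1 went from 7010 to 3497 and 3499 in the parental line and from 5110 to 5566 and 5455 in the knockout. The rank was worst in parental DMSO, the library that both parental ratios share. The fold of EGR1 moved less, with 4.12, 4.96 and 4.72 in the parental and 4.46, 4.11 and 4.03 in the knockout line, and by fold the parental ratios were 1.17 and 1.13, inside the size limit. Local background rose along with the peak, from 17.2 to 20.8 and 23.7 times that of the library in parental cells. It went from 16.6 to 20.7 and 20.3 times in knockout cells. Widths were 1616, 1540 and 1658 bp in the parental and 1566, 1747 and 1731 bp in the knockout line. Multiplied by width, the level gave parental ratios of 1.41 and 1.54 and knockout ratios of 1.15 and 1.23.

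The parental ratio of EGR1 was 1.35 times the knockout ratio at 2 h and 1.5 times at 4 h, or 0.43 and 0.58 on the log2 scale. Without division by the median the log2 differences were 0.36 and 0.30, by level times width 0.29 and 0.32, and by fold 0.36 and 0.07. The direction was the same in all of these, and the size was largest with the level divided by the median. At 4 h the parental median is of 11734 regions and the knockout median of 3760. The difference was inside the size limit by level times width at 2 h. At 4 h it was inside the limit without division by the median and by fold. Of all regions with levels, 6.82% of 11118 passed the size limit in that direction at 2 h and 8.49% of 3759 at 4 h. Among other regions within 2 Mb of EGR1, 0 of 26 had a higher parental ratio at 2 h and 0 of 28 at 4 h, and their medians were 1.01 and 0.986. In the knockout, 7 of 28 and 6 of 12 neighbours were above EGR1. EGR1 was taken up for its large parental rise, while the neighbours and the regions in these shares were not picked by their ratios.

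EGR3 and EGR2 are related zinc finger factors that act in lymphocyte activation. The strongest EGR3 region, chr8:22551058-22553434, lies just beyond the right end of its span. Its levels were 25.4, 34.4 and 30.0 in the parental line and 25.0 and 34.7 in the knockout with DMSO and at 2 h. Both 2 h libraries were above both DMSO libraries, with ratios of 1.30 and 1.28, and the parental 4 h ratio was 1.12. The parental over the knockout ratio at 2 h was 1.02. The parental 2 h peak was 1528 bp wide against 2272 bp with DMSO, and level times width gave a ratio of 0.918 there and 1.31 in the knockout. A second EGR3 region, chr8:22542901-22543129, named here after its values were seen, had folds of 5.85, 3.25 and 5.96 in the parental line. Its folds in the knockout were 3.67 and 2.79 with DMSO and at 2 h, with no peak at 4 h. The lowest folds, at 2 h, came from the widest peaks, 1129 and 2255 bp against 205 to 229 bp elsewhere.

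EGR2 was marked in 1 region, chr10:64576085-64577749. The parental folds were 3.55, 4.09 and 3.46 and the knockout folds 3.15, 5.04 and 2.26. In each genotype the 2 h library was highest. The ratio at 2 h was 1.12 in the parental line and 1.59 in the knockout, the second past the size limit. Ranks went from 17082 to 14940 and 16801 in the parental line and from 17848 to 13373 and 16508 in the knockout. In knockout DMSO the EGR2 peak was 2536 bp wide, against 1665 bp at 2 h. The 30000 strongest peaks of knockout 4 h held none at EGR2.

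NR4A1, an orphan nuclear receptor, has the longest span, with peaks along its whole length. Its strongest region, chr12:52416653-52419392, begins just inside the left end of its span. NR4A1 has more than 1 RefSeq start, and which of them lies near this region was not checked. The parental levels were 86.6, 77.3 and 75.2, and the knockout levels 70.1 and 72.1 with DMSO and at 2 h. The parental ratios were 0.863 and 0.821 and the knockout ratio at 2 h was 0.95, all inside the size limit.

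Within NR4A1 a further peak began about 28 kb from the left end of the span and was among the 30000 strongest in every library but knockout 4 h. Its parental widths were 904, 2180 and 2398 bp, with folds of 3.09, 3.49 and 3.08. In knockout cells it was 1183 bp wide with DMSO and 1328 bp at 2 h, with folds of 3.16 and 3.52. The treated parental peaks were thus the widest, and they ran over a stretch where the other libraries had a gap between 2 peaks. A peak of 1571 bp that began 9.55 kb from the left end was among the 30000 strongest only in parental 2 h. Peaks overlapping that stretch stood just outside in parental DMSO, at place 31987, and further out in parental 4 h at 37632. In the knockout they stood at 39145 with DMSO, 59537 at 2 h and 73861 at 4 h. The covered length of NR4A1 was 3565, 6412 and 5027 bp in the parental and 4113, 4021 and 1856 bp in the knockout line. In these lists it was longest in the treated parental libraries. Over all deposited peaks it was not, with 10666, 10520 and 10090 bp in the parental and 9536, 13160 and 10036 bp in the knockout line, so the order depends on the number of peaks taken.

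**Figure D2:**
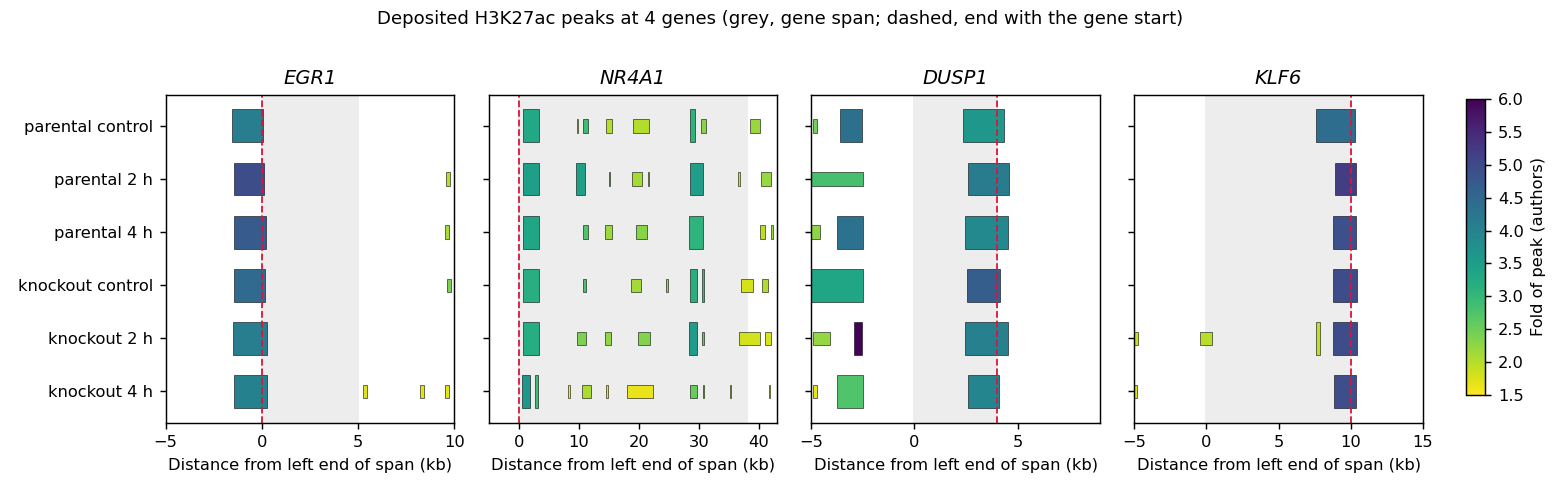
Deposited peaks at EGR1, NR4A1, DUSP1 and KLF6 by library, as distance in kb from the left end of the gene span; tall bars are among the 30000 strongest peaks of their library, low bars are not, and colour is the authors' fold. The KLF6 peak of parental control reaches further into the gene (2699 bp) than the others, and the NR4A1 peak near 28 kb is widest in the treated parental libraries (2180 and 2398 bp).

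IER5, a regulator linked to the phosphatase PP2A and to heat shock factor, was marked in chr1:181057623-181059500, inside the gene span. The parental levels were 56.6, 43.1 and 50.3, and the knockout levels 43.5 and 52.2 with DMSO and at 2 h. Parental DMSO was the highest and parental 2 h the lowest, and the genotypes overlapped. The parental ratio was 0.735 at 2 h, past the size limit, and 0.840 at 4 h, and the knockout ratio at 2 h was 1.11. The parental over the knockout ratio was 0.663, and 11.4% of 11118 regions passed the size limit in that direction. By fold the parental ratio at 2 h was 0.860, inside the limit. Of 16 neighbours within 2 Mb, 15 had a higher parental ratio at 2 h.

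DUSP1, a phosphatase that inactivates MAP kinases, was marked over its start in chr5:172197469-172199595. The parental folds were 3.62, 4.13 and 3.88 and the knockout folds 4.68, 4.07 and 3.95. Parental DMSO ranked it at 16000, and the other 5 libraries at 10057 to 12659. The fold in knockout DMSO was 1.29 times that in parental DMSO, with peaks of 1603 and 2005 bp. Levels were 35.4 in parental 4 h, 31.6 in knockout DMSO and 38.6 in knockout 2 h. The knockout ratio at 2 h was 1.13 by level, 1.43 by level times width and 0.864 by fold, so its direction depends on the measure.

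A second DUSP1 region, chr5:172192061-172192438, lies past the other end of the gene. Its parental folds were 4.36, 2.84 and 4.32, and its knockout folds 3.33, 5.97 and 2.73. The knockout fold was 0.763 times the parental one with DMSO and 2.14 times at 2 h, in opposite directions. The peak widths also differed, at 1063, 3055 and 1287 bp in the parental and 2704, 378 and 1264 bp in the knockout line. The narrowest peak had the highest fold, and the lowest fold came from the peak of 1264 bp.

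KLF6, a zinc finger factor of the Krüppel-like family, had a higher level in knockout than in parental cells with and without drug, and was singled out after its values were seen. Its region, chr10:3825605-3828412, lies over the end of the span with the gene start. The parental levels were 83.5, 73.0 and 82.1 and the knockout levels 155, 156 and 166, and the genotypes did not overlap. The knockout level was 2.11 times the parental one with DMSO, 2.33 times at 2 h and 1.89 times at 4 h. Of all regions with levels, 0.851% of 3759 were at least 1.5 times higher in the knockout at all 3 times. Drug ratios were 0.845 and 0.93 in the parental line and 0.93 and 0.831 in the knockout, inside the size limit.

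By rank KLF6 stood at 5703, 5815 and 5626 in the parental line and at 535, 732 and 1271 in the knockout. The folds did not separate the genotypes, with 4.41, 5.20 and 4.90 against 4.97, 4.95 and 4.94. The local background did, at 17.6, 12.4 and 15.4 times that of the library against 30.0, 30.4 and 28.8 times. The parental DMSO peak was 2699 bp wide, and the other 5 were 1414 to 1656 bp wide. Level times width gave knockout over parental ratios of 1.30, 2.57 and 2.02, and parental drug ratios of 0.463 and 0.556. Of other regions within 2 Mb, 0 of 12 had a higher ratio between genotypes with DMSO, 0 of 11 at 2 h and 0 of 2 at 4 h, with medians of 1.06, 1.14 and 1.04. DNA copy number at KLF6 was not tested.

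**Figure D3:**
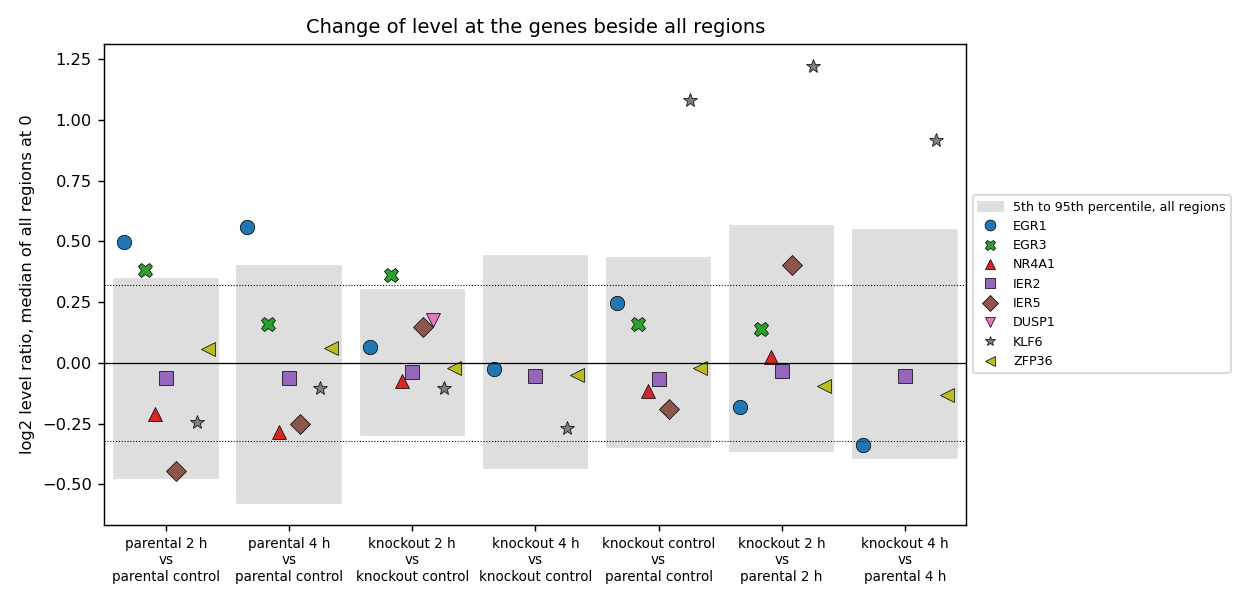
Log2 ratio of level at the strongest region of each gene for 7 pairs of libraries, with the median of all regions at 0; grey bands span the 5th to 95th percentile of all regions and dotted lines mark the size limit of 0.32. EGR1 lies above the band in both parental comparisons (0.50 and 0.56), EGR3 in both comparisons at 2 h (0.38 and 0.36), and KLF6 in all 3 comparisons between genotypes (1.08, 1.22 and 0.92).

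Over the set, few genes passed the size limit in level. In parental cells at 2 h, 2 of 7 were higher (EGR1 and EGR3), where 6.12% of all regions were, and 1 was lower (IER5), where 12.3% were. At 4 h, 1 of 7 was higher (EGR1) against 8.85% of regions, and 0 were lower against 16.6%. EGR1 alone passed at both times, as did 3.32% of 11115 regions. In knockout cells at 2 h, 1 of 8 was higher (EGR3) against 4.01% of regions, and 0 were lower against 4.15%. At 4 h, 0 of 4 were higher against 10.5%, and 0 lower against 11%. By level the median gene stayed near the median region, with ratios of 0.956 and 0.958 in the parental and 1.02 and 0.965 in the knockout line. The last of these is of 4 genes only. By fold, over all 9 genes, the median ratios were 1.11 and 0.996 in the parental and 0.992 and 1.18 in the knockout line.

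Between genotypes with DMSO, 1 of 7 was higher in the knockout (KLF6) against 8.83% of regions, and 0 were lower against 6.03%. At 2 h, 2 of 7 were higher (IER5 and KLF6) against 13.3%, and 0 lower against 6.73%. At 4 h, 1 of 4 was higher (KLF6) against 13.3% and 1 was lower (EGR1) against 8.41%. Before division by the median, the median region with a level moved by 0.11 and 0.36 on the log2 scale at 2 h and 4 h in the knockout. These medians come from 12978 and 3760 regions, so the second covers only those with a level in knockout 4 h. Between genotypes the median region moved by -0.19 with DMSO and by -0.13 at 2 h.

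By fold, other genes passed the limit. In parental cells 0 of 9 were higher, where 8.28% of regions were at 2 h and 6.93% at 4 h, and 0 were lower, where 9.34% and 8.32% were. In knockout cells at 2 h, 1 was higher (EGR2) against 6.08%, and 0 lower against 5.62%. At 4 h, 4 were higher (EGR3, NR4A1, IER2 and ZFP36) against 17.6%, and 0 lower against 24.6%. Of these 4, IER2 and ZFP36 had levels, with ratios of 0.964 and 0.966. DUSP1 was the 1 gene higher in knockout than in parental DMSO, against 8.21%, and EGR2 the 1 gene higher at 2 h, against 11.2%. In these, 0 were lower, against 6.53% and 8.49%. At 4 h, 3 were higher (NR4A1, IER2 and ZFP36) against 16.9%, and 1 lower (EGR2) against 24.2%. The median region moved by -0.25 and -0.26 in log2 fold in the pairs with knockout 4 h before division by the median.

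Covered length was compared with that of 18428 tiles of 15 kb that hold a fixed region, and a change of 1000 bp was counted. In parental cells NR4A1 was longer at 2 h and 4 h, where 1.38% and 2.07% of tiles were. At neither time was NR4A1 among the longer genes with all deposited peaks, with 15000 peaks or with a −log10 q of at least 5. DUSP1 and KLF6 were shorter at 2 h, against 6.7%, and KLF6 at 4 h, against 4.8%. With all deposited peaks, or with 15000 peaks, DUSP1 was instead among the longer genes at 2 h, by 1244 bp over all peaks. In knockout cells at 2 h, 0 were longer against 3.42%, and DUSP1 was shorter, against 2.87%. At 4 h, 0 were longer against 0.809%, and 5 of 9 were shorter (EGR2, NR4A1, IER2, DUSP1 and ZFP36) against 19.6%. Between genotypes with DMSO, DUSP1 and ZFP36 were longer in the knockout against 3.77%, and KLF6 shorter against 3.26%. At 2 h, ZFP36 was longer against 8.15% and NR4A1 shorter against 1.75%. At 4 h, 0 were longer against 1.28%, and EGR2, NR4A1 and IER2 were shorter against 16.4%. Extended spans are 13 to 48 kb long, so the longest, NR4A1, has more room to change than a tile, and the part of the low background of knockout 4 h in its counts was not tested.

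ZFP36 was longer in the knockout through a weak peak upstream of the gene. Its fold was 1.96 in knockout DMSO and 1.90 in knockout 2 h, where it was among the 30000 strongest. In parental DMSO its fold was 1.8 and its place 33188, and in knockout 4 h its place was 30269, both outside. The covered lengths of ZFP36 were 3941, 3824 and 3837 bp in the parental and 5304, 5483 and 3890 bp in the knockout line. Those of IER2 were 6305, 5529 and 6421 bp against 6369, 6418 and 2329 bp, and IER5 stayed between 1564 and 1867 bp in all 6 libraries.

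**Figure D4:**
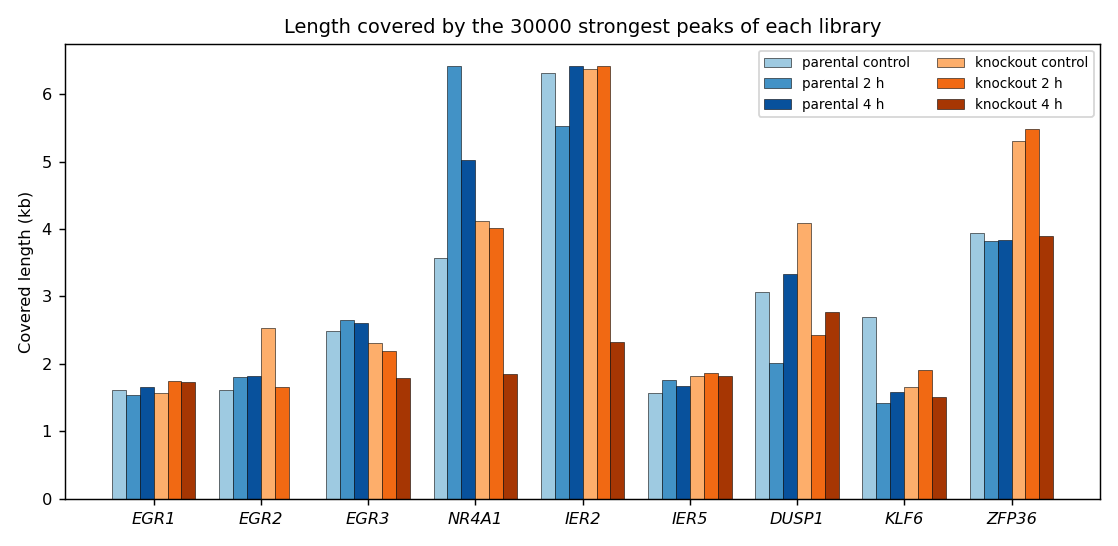
Length in kb covered by the 30000 strongest peaks of each library in each extended gene span, 1 bar per library. NR4A1 is longest in the treated parental libraries in these lists (6412 and 5027 bp), though not over all deposited peaks, and knockout 4 h is shortest at EGR2 (0 bp), EGR3, NR4A1 and IER2.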

How the data were processed

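The submitters' processing notes name hg19, MACS2 2.1.2, Picard 2.9.2, SAMtools 1.8, BWA 0.7.17, Trimmomatic 0.39 and Trim Galore 0.6.2, with no settings, and do not say which control the peak caller had. The authors deposited 1 broadPeak list per library, with a fold (a ratio to local background), a −log10 p and a −log10 q for each peak. The score deposited by the authors is 10 times the −log10 q, cut to a whole number. Gene spans were not checked against an hg19 annotation, and planned lists of pathway and marker genes were not run. The 9 genes and all lists were chosen with earlier results of these data known, and the level was added after seeing the data.

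Autosomes and X were used. A region took the highest fold and the smallest p of the peaks that overlap it by at least 1 bp, and the strongest region of a gene had the best mean rank over the 5 libraries other than knockout 4 h. Covered length was cut at the ends of the extended span. For the level, MACS2's fold, (pileup + 1) / (background + 1), and its Poisson p were solved at the peak of smallest p, taking only a single solution with a background between 0.05 and 400 fragments per base. This gave 3760 regions a level in knockout 4 h and 11404 to 13704 in the other libraries. The solution treats a broad peak as flat. The background of a library was solved from its commonest fold and p. Only the solving of the level was tried on simulated peaks, with the library background given. Their local background was a fixed share of the level that was not matched to these genes. The regions, covered lengths, tiles and library backgrounds were not tested in this way. The rule named all 9 genes with their strongest region, and a further region where it passed the size limit in both treated libraries of a genotype or between genotypes with DMSO and at 2 h. The second DUSP1 region met it. The second EGR3 region and the 2 further ZFP36 regions did not, and were added after their values were seen to account for all 13 regions. Python 3.11.15, NumPy 2.4.6, pandas 2.3.3 and SciPy 1.17.1 were used.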

Additional observations from a re-analysis of the deposited data

Results flagged for a closer look

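The covered length of NR4A1 moved in opposite directions in the genotypes at 4 h, by 1462 bp in parental cells and by -2257 bp in knockout cells. With all deposited peaks both signs turned, to -576 bp for the parental line and 500 bp for the knockout. The difference was not tested, with 1 library per group. Knockout 4 h had the lowest background pileup, 0.168 fragments per base, and its part in the result was not tested. At 2 h the parental length was 6412 bp, from 3565 bp with DMSO, and the knockout length 4021 bp, from 4113 bp.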

How the results depend on the processing

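No paired analysis was possible because each group has 1 library. Of the counts of genes under alternatives, 104 stayed within 1.5 times and 50 did not. Many of the 104 were counts of 0 that stayed at 0, and 14 were counts of other genes than before. The causes were not tested. Alternatives for knockout 4 h against parental 4 h were added after seeing the data. With all deposited peaks, 0 genes were longer in parental 4 h, 3 longer in knockout 2 h, 2 shorter in knockout 4 h, 1 longer and 2 shorter in knockout against parental control, 4 longer in knockout against parental cells at 2 h, and 1 shorter between genotypes at 4 h. With 15000 peaks, 2 were longer (EGR3 and DUSP1) in parental 2 h and 4 h, 1 shorter (KLF6) in parental 2 h, 2 longer and 0 shorter in knockout 2 h, 2 shorter in knockout 4 h, 1 longer between controls and 0 shorter between genotypes at 2 h. With a −log10 q of at least 5, 2 were longer and 1 shorter in parental 2 h, 3 longer and 0 shorter in knockout 2 h, 1 longer between controls, 3 longer and 0 shorter between genotypes at 2 h, and 5 shorter between them at 4 h. Without span extension, 1 was shorter in parental 2 h, 0 in knockout 2 h and 3 in knockout 4 h, and 0 were longer between genotypes with DMSO or at 2 h. From 500 bp, 2 were shorter in knockout 2 h, 4 longer between controls, 3 longer between genotypes at 2 h and 5 shorter between them at 4 h. For fold in knockout 4 h against its control, 1 was higher and 1 lower without division by the median, 1 lower with the added 1 taken out, and 2 were higher with regions from all 6 libraries, with a peak required to cover much of the region, or without extension. Between genotypes, without division by the median, 0 were higher at 2 h, and 1 was higher and 2 lower at 4 h. At 4 h, 6 were higher with the added 1 taken out, and 1 with regions from all 6 libraries or with a peak required to cover much of the region. Level in place of fold gave 2 higher and 1 lower in parental 2 h, 1 higher in parental 4 h, 0 higher in knockout 4 h, 2 higher between genotypes at 2 h and 1 at 4 h (KLF6). By fold, the EGR1 ratio of knockout 4 h to parental 4 h was 1.02 (0.791 by level) and the KLF6 ratio of knockout 2 h to parental 2 h was 0.969 (2.33 by level), both in the other direction. With 1 library per group and no counts in the lists, depth and library quality cannot be told apart from the groups.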
